A study of Homo sapiens with 8 samples.

Results

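The miRNAs described here are hsa-miR-146a-5p, hsa-miR-146b-5p and hsa-miR-155-5p (below without the species prefix), the 5p arms of precursors that have been linked to NF-κB. They were chosen by name, and all 3 were listed, among 945 miRNAs in the deposited count tables. Small RNA of H1299, a p53-null human lung cancer line in long use, was sequenced in 4 groups of 2 libraries each. The control cells had been infected with an empty vector (EV) and were supplied by another laboratory. The second line stably expressed mutant p53 R273H from a pCMV vector (R273H) and was grown from colonies resistant to G418, selected at 800 µg/ml and kept at 400 µg/ml. Each line was sequenced untreated and after 24 h of etoposide, a topoisomerase II inhibitor that breaks DNA, at a dose the labels write both as 10 µM and as 10 mM. Both lines lack wild-type p53, and passage numbers were 15 to 20. The study reports that profiling of short tandem repeats found the lines isogenic. A difference between the lines still cannot be told apart from a difference in how and where they were made. The study describes the libraries of a group as biological replicates, while the labels do not say whether they came from separate cultures, and p-values measure the spread between these libraries only.

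NF-κB is a family of transcription factors that inflammatory cytokines, microbial products and DNA damage bring into the nucleus. The precursors of miR-146a and miR-155 are among its best known miRNA targets. miR-146a and miR-146b repress IRAK1 and TRAF6, proteins that relay receptor signals to NF-κB, and so close a negative feedback loop. miR-155 comes from the non-coding RNA BIC, is abundant in activated lymphocytes and macrophages, and represses SHIP1 and SOCS1, brakes on cytokine signalling. Induction of miR-155 by mutant p53 has been described in breast cancer cells. The comparisons below ask whether these miRNAs differed between cells with and without R273H and whether etoposide changed them.

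The mature sequences are shown because the first 2 of them differ at few bases and share the seed, the stretch of bases 2 to 8 that pairs with targets. They are RefSeq sequences written 5′ to 3′, with the seed in capitals.
miR-146a-5p: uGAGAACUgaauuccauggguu
miR-146b-5p: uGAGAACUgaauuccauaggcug
miR-155-5p: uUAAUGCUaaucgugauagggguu
miR-146a-3p: cCUCUGAAauucaguucuucag
The opposite arm of miR-146a, miR-146a-3p, is shown because its counts enter the arm comparison. The lengths are 22 bases for miR-146a-5p, 23 for miR-146b-5p and 24 for miR-155-5p. The first 17 bases of miR-146a-5p and miR-146b-5p are identical. Counted from 1 at the 5′ end, with the base of miR-146a-5p first, they differ by G18A and U21C, and miR-146b-5p has 1 more base at its 3′ end. The shortest reads kept by the authors were also 17 bases long, so a read cut short at its 3′ end could fit either. How such reads were assigned is not given in the sources used here. The seed GAGAACU is held by 3 mature human miRNAs in RefSeq, of which miR-146a-5p and miR-146b-5p were in the tables, and miR-155-5p alone holds the seed UAAUGCU.

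All positions are on the plus strand of GRCh37, by exact match of the mature sequence. miR-146a-5p lies at chr5:159912379-159912400 and miR-146a-3p at chr5:159912415-159912436, both in an exon of the long non-coding RNA MIR3142HG. miR-146b-5p lies at chr10:104196277-104196299, in its own miRNA gene MIR146B. miR-155-5p lies at chr21:26946295-26946318, in an exon of the long non-coding RNA MIR155HG.

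The libraries held 234545 to 579367 reads on all annotated features and 213007 to 536991 on miRNAs. The deposited normalized counts were reads divided by a size factor, and every value was a whole multiple of the value of 1 read, so reads could be recovered. Levels across all 8 libraries are given on 2 scales. The first is reads per 1000000 miRNA reads (RPM). The second is reads divided by a median-of-ratios size factor (scaled reads), which takes the typical feature read in every library as unchanged. The scales part most for etoposide, because the median etoposide difference of all tested miRNAs in R273H was 0.02 on the log2 scale of the deposited counts and 0.70 after scaling by total miRNA reads. The corresponding medians in EV were -0.03 and 0.38. Between the lines, the median difference of all tested miRNAs in scaled reads was 0.20 over both treatments and 0.25 among the etoposide libraries. All 3 miRNAs were low. miR-155-5p ranked between 145 and 197 among the miRNAs of a library, and miR-146b-5p between 169 and 272. miR-146a-5p, where it had reads, ranked between 246 and 277. Counting therefore limits the precision, and 95% Wilson intervals and limits given below cover counting error only. They leave out the choice of scale and any other spread between libraries.

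**Figure D1:**
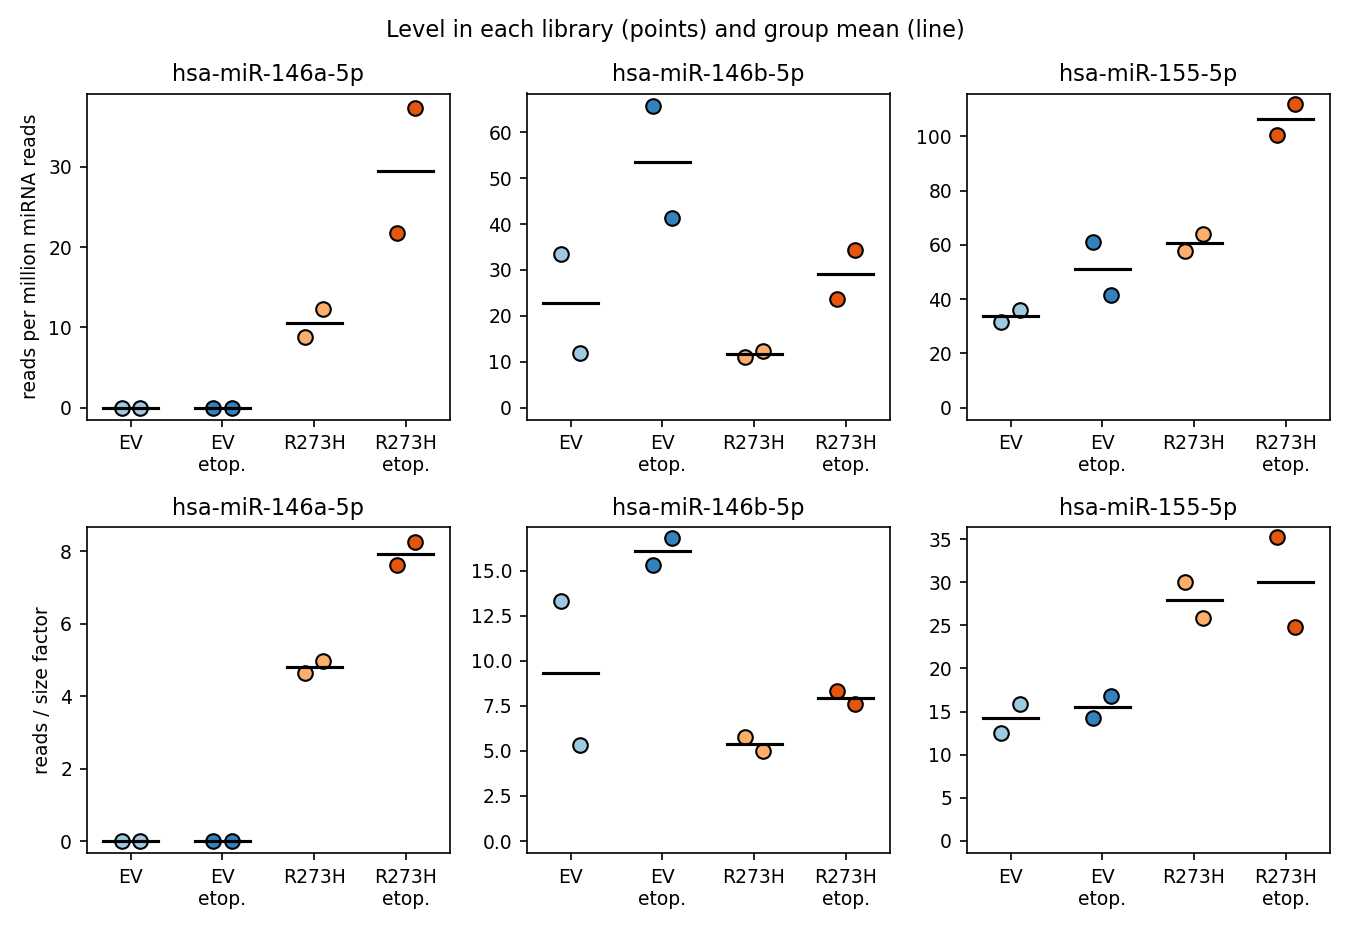
Level of miR-146a-5p, miR-146b-5p and miR-155-5p in the 8 libraries (points, 2 a group; etop., etoposide) with the group mean (line), as RPM in the upper row and as reads divided by the size factor in the lower row. miR-146a-5p is at 0 in all 4 EV libraries, and the mean of miR-155-5p in R273H goes from 60.7 untreated to 106.2 after etoposide on the upper scale and from 28.0 to 30.0 on the lower one.

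miR-146a-5p was read in R273H and not in EV. It had 0 reads in both untreated EV libraries, and the table of etoposide in EV has no row for it. Every row of that table has a read in at least 1 of its 4 libraries, so the absent row was taken as 0 reads. The untreated R273H libraries had 4 and 5 reads, and the etoposide-treated R273H libraries 11 and 13. In all, 0 of 1362057 miRNA reads of EV and 33 of 1714089 of R273H were miR-146a-5p. A count of 0 allows up to 3 reads in a library, which is 5.59 and 12.0 RPM in the untreated EV libraries and 14.1 and 8.28 RPM in the etoposide-treated ones. The R273H libraries held 8.85 and 12.3 RPM untreated (95% intervals 3.44 to 22.8 and 5.25 to 28.8) and 21.7 and 37.3 RPM after etoposide (12.1 to 38.9 and 21.8 to 63.8). The untreated levels therefore lie near the limit that 0 reads allow in EV, and the measured etoposide-treated levels lie above it. The interval of the first etoposide-treated R273H library still begins at 12.1 RPM, under the limit of 14.1 RPM in the first etoposide-treated EV library.

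Set against a limit of 3 reads per EV library, mean scaled reads of miR-146a-5p in R273H were 1.28-fold that limit untreated, 2.39-fold after etoposide and 1.80-fold over both. These ratios leave out the counting error of the R273H reads, whose untreated intervals begin below the EV limits. They are therefore not lower bounds. In the limma fit of all 8 libraries the log2 difference of scaled reads was 2.85 (SE 0.52, adjusted p = 0.000129) for the mean of both treatments and 3.16 (SE 0.74, adjusted p = 0.00424) among the etoposide libraries. These fitted values depend on the pseudocount of 1, since EV was at 0, and miR-146a-5p reached the minimum mean of 3 only through R273H. An exact two-sided permutation test over the 8 libraries, which uses no such minimum, gave p = 0.0286, the smallest that 4 against 4 can give. In the untreated table the mean was under 3 and no test was made. The normalized counts there were 0 and 0 in EV against 4.10 and 4.44 in R273H, a log2 difference of 2.40. Without the minimum, limma gave this difference an adjusted p = 0.0361. For the mean of both treatments 37.1% of 321 miRNAs were called at an adjusted p under 0.05, and among the etoposide libraries 18.1% were, so calls between these lines were common. The 4 EV and 4 R273H libraries did not overlap for 30.8% of the 321.

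miR-146b-5p, which carries the same seed, did not share this pattern. Its normalized counts were 12.46 and 4.78 in untreated EV against 5.13 and 4.44 in untreated R273H. The groups overlapped, and the 2 EV libraries stood further apart than the means of the groups. The log2 difference was -0.61 (SE 0.60, 95% interval -1.87 to 0.65, adjusted p = 0.505 by limma). Among the etoposide libraries the scaled reads were 15.3 and 16.8 in EV against 8.30 and 7.62 in R273H. They did not overlap, but the log2 difference of -0.93 (SE 0.56, adjusted p = 0.252 by limma) missed the threshold. Over all 8 libraries the log2 difference was -0.75 (95% interval -1.56 to 0.05, adjusted p = 0.133 by limma). The exact permutation test gave p = 0.114. edgeR on the recovered reads gave -1.20 with an adjusted p = 0.0276, so the call for miR-146b-5p rests on the tool.

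The miR-146 5p reads of both loci were also added, because reads of 17 bases could belong to either. The sums were 18 and 3 reads in untreated EV, 14 and 15 in etoposide-treated EV, 9 and 10 in untreated R273H, and 23 and 25 in etoposide-treated R273H. In scaled reads the sums were 13.3, 5.30, 15.3 and 16.8 in the 4 EV libraries. They were 10.4, 9.94, 15.9 and 15.9 in the 4 R273H libraries, within the range of EV. The log2 difference of the sum between the lines was 0.11 (limma SE 0.38, exact permutation p = 0.829). In EV all of the sum was assigned to miR-146b-5p, while in R273H the reads were split evenly, with 33 on miR-146a-5p and 34 on miR-146b-5p. The lines thus differed in the locus to which the reads were assigned, while no difference was detected in their sum.

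The miR-146a precursor also gives a 3p arm, whose sequence differs from that of miR-146b-5p. miR-146a-3p is the strand less often loaded into Argonaute. It had 8 and 3 reads in untreated EV, 7 and 9 in etoposide-treated EV, 1 and 6 in untreated R273H, and 3 and 1 in etoposide-treated R273H. The EV libraries thus held reads of the precursor while they held none of its 5p arm. Over all 8 libraries the log2 difference of miR-146a-3p was -1.45 (SE 0.49, adjusted p = 0.0212 by limma), and among the etoposide libraries it was -2.13 (SE 0.69, adjusted p = 0.0321 by limma). Here miR-146a-3p reached the minimum mean of 3 through EV, where it was higher, and without that minimum neither call held. The 6 reads of the second untreated R273H library lay inside the range of EV, and the exact permutation test gave p = 0.0857. The call over all 8 libraries was lost without a filter on low values (adjusted p = 0.0923), with equal upper quartiles (0.0674), with total miRNA scaling (0.0643) and with DESeq2 (0.0674). It was also lost without the first untreated R273H library (0.167), the second etoposide-treated EV library (0.0664) or the second etoposide-treated R273H library (0.109). The call among the etoposide libraries was lost without the filter (0.148), with equal upper quartiles (0.0771), total miRNA scaling (0.0993) and DESeq2 (0.0792). It was also lost without the second etoposide-treated EV library (0.159) or the first (0.0881) or second (0.267) etoposide-treated R273H library.

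The share of miR-146a reads on the 5p arm was 0% in all 4 EV libraries, of 8, 3, 7 and 9 reads. In R273H it was 80.0% of 5 reads (95% Wilson interval 37.6 to 96.4) and 45.5% of 11 reads (21.3 to 72.0) untreated. After etoposide it was 78.6% of 14 reads (52.4 to 92.4) and 92.9% of 14 reads (68.5 to 98.7). The share in EV is 0% because EV had no miR-146a-5p reads, so it restates that count and was given no test. The upper limits in EV ran from 29.9% to 56.2%, so at 3 to 9 reads per library a minor share of 5p reads would have gone unseen. miR-146b-3p had no row in any of the 3 tables, so all reads of the miR-146b precursor were on its 5p arm.

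miR-155-5p had the most reads of the 3 over all libraries, and it had more reads in each R273H library than in the EV libraries of the same treatment, on both scales and before any scaling. Neither treatment alone passed the test. Its normalized counts were 11.77 and 14.34 in untreated EV and 26.68 and 23.11 in untreated R273H. Both R273H libraries lay above both EV libraries, as the groups of 61.5% of the 304 miRNAs tested did not overlap in 1 direction or the other. The log2 difference was 0.88 (SE 0.47, 95% interval -0.11 to 1.87, adjusted p = 0.194 by limma), while 20.4% of the tested miRNAs were called. The study used an unadjusted p under 0.05 and a change of at least 2-fold, with DESeq as its test. With these cut-offs applied to limma here, 83 miRNAs passed in this comparison, and miR-155-5p was not among them. That count is therefore not the study's own. The etoposide libraries, which are other libraries than the untreated ones, gave scaled reads of 14.2 and 16.8 in EV against 35.3 and 24.8 in R273H. Their log2 difference was 0.89 (SE 0.45, 95% interval -0.03 to 1.81, adjusted p = 0.166 by limma).

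Taken over both treatments, the log2 difference of miR-155-5p was 0.91 (SE 0.32, 95% interval 0.26 to 1.56, adjusted p = 0.0245 by limma), which is 1.88-fold. All 4 R273H libraries, with 24.8 to 35.3 scaled reads, lay above all 4 EV libraries, with 12.6 to 16.8. The lines did not overlap, in either direction, for 30.8% of the 321 tested miRNAs, and 37.1% were called. For miR-155-5p the exact permutation test gave its smallest p of 0.0286. The call of miR-155-5p did not hold under every setting. The adjusted p was 0.0616 without a filter on low values, 0.16 with scaling by total miRNA reads, 0.0892 with edgeR and 0.107 with DESeq2. It was also lost without the first untreated EV library (0.0708), the first untreated R273H library (0.0666), or the first (0.16) or second (0.0533) etoposide-treated R273H library. The difference itself stayed between 0.75 and 1.23 over all other settings and between 0.79 and 1.04 with each library left out. On the RPM scale the lines did not overlap within a treatment, with 31.7 and 36.0 in EV against 57.5 and 63.9 in R273H untreated. After etoposide RPM was 61.0 and 41.4 in EV against 101 and 112 in R273H. Pooled over treatments the lines overlapped on that scale, because the first etoposide-treated EV library (61.0) exceeded the first untreated R273H library (57.5).

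The 3p arm of miR-155 had 0 to 4 reads per library, 4 in all EV libraries together and 10 in all R273H libraries together. The share of miR-155 reads on the 5p arm ranged from 86.7% to 100%. It averaged 94.0% in EV and 92.9% in R273H, a difference of -1.09 percentage points (exact permutation p = 0.771), in contrast to the split seen for miR-146a.

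**Figure D2:**
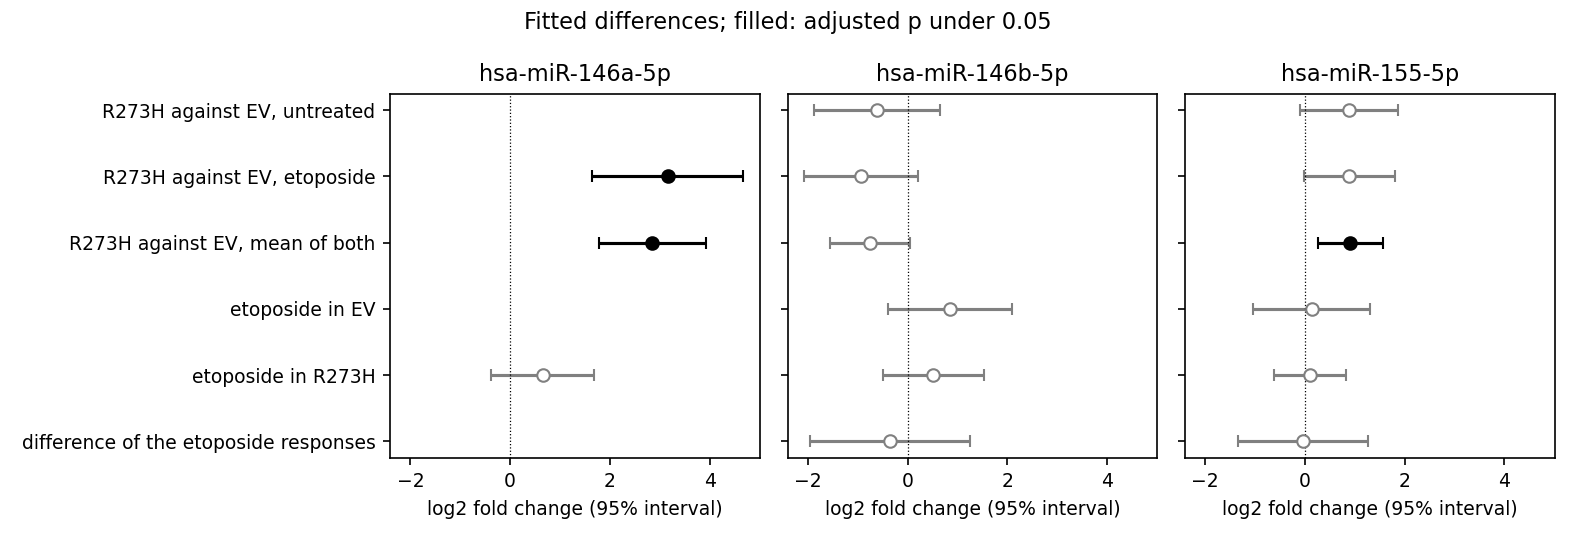
Log2 fold changes of miR-146a-5p, miR-146b-5p and miR-155-5p in the 6 comparisons, with 95% intervals from limma (horizontal bars); filled points have an adjusted p under 0.05. miR-146a-5p is called in 2 comparisons and miR-155-5p in 1, all of them comparisons of the lines. In both of its calls miR-146a-5p reached the minimum mean for testing only through R273H, since EV had no reads. No comparison of treated with untreated cells has a filled point. No test was made for miR-146a-5p untreated or with etoposide in EV, and its difference of responses is not drawn because EV had no reads.

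No change with etoposide was called by limma, edgeR or DESeq2 for miR-146b-5p or miR-155-5p in either line or for miR-146a-5p in R273H, and none had an unadjusted p under 0.05 by limma. miR-146a-5p had no reads in EV and was not tested there. The treated libraries were compared with the untreated ones that also entered the comparison of untreated lines, so these comparisons are not independent. In EV, the normalized counts of miR-155-5p were 10.96 and 13.62 untreated and 12.40 and 14.76 treated. The groups overlapped, and the log2 difference was 0.14 (95% interval -1.04 to 1.31, adjusted p = 0.993 by limma). miR-146b-5p in EV had 11.61 and 4.54 untreated and 13.35 and 14.76 treated. Both treated libraries were higher, as the groups of 34.1% of 296 miRNAs did not overlap, and the log2 difference was 0.85 (95% interval -0.40 to 2.09, adjusted p = 0.902 by limma). The untreated library with 4.54 rested on 3 reads. Over all tested miRNAs, 0.676% were called in this comparison.

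In R273H, miR-146a-5p had normalized counts of 5.32 and 5.90 untreated and 9.07 and 9.65 treated. The groups did not overlap, which held for 39.3% of 341 miRNAs, and the log2 difference was 0.65 (SE 0.48, 95% interval -0.39 to 1.69, adjusted p = 0.658 by limma). miR-146b-5p had 6.65 and 5.90 untreated and 9.89 and 8.91 treated, which gave 0.52 (SE 0.47, 95% interval -0.50 to 1.53, adjusted p = 0.738 by limma). The counts of both miR-146 members were thus close to each other in each R273H library. miR-155-5p had 34.57 and 30.70 untreated and 42.05 and 28.95 treated, which overlapped, with a log2 difference of 0.10 (95% interval -0.62 to 0.82, adjusted p = 0.966 by limma). Of all miRNAs tested in R273H, 0% were called by limma, 31 had an unadjusted p under 0.05, edgeR called 0 and DESeq2 called 1.

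The size of the etoposide differences depended on the scale. With total miRNA scaling the log2 differences in R273H were 1.27 for miR-146a-5p, 1.14 for miR-146b-5p and 0.78 for miR-155-5p, against a median of 0.70 for all tested miRNAs. Relative to that median, miR-155-5p moved by about as much as the typical miRNA on both scales. None of these passed either (adjusted p = 0.355, 0.378 and 0.468 by limma). The etoposide responses of the lines were compared directly in the fit of 8 libraries. The differences of the responses, R273H minus EV, were -0.35 (95% interval -1.97 to 1.26) for miR-146b-5p and -0.04 (-1.34 to 1.26) for miR-155-5p. Both had an adjusted p of 0.993 by limma. miR-146a-5p had no reads in EV and hence no EV response to compare. Over all miRNAs, 0% of the 321 miRNAs were called by limma, edgeR or DESeq2, with 11 at an unadjusted p under 0.05 by limma. Intervals this wide leave differences of more than 2-fold in either direction undetectable at this depth.

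The order of the 4 groups followed the line for miR-155-5p. Its mean scaled reads were 14.2 ± 2.36 (SD, n = 2) in untreated EV, 15.5 ± 1.84 in etoposide-treated EV, 28.0 ± 2.99 in untreated R273H and 30.0 ± 7.43 in etoposide-treated R273H. Neighbours of the same line overlapped, and the step between the lines was the gap without overlap. For miR-146a-5p the order was EV at 0, untreated R273H at 4.80 ± 0.24 and etoposide-treated R273H at 7.93 ± 0.46. For miR-146b-5p it was untreated R273H (5.38 ± 0.57), etoposide-treated R273H (7.96 ± 0.48), untreated EV (9.30 ± 5.66) and etoposide-treated EV (16.1 ± 1.07). The range of untreated EV, from 5.30 to 13.3, held both etoposide-treated R273H libraries, so only etoposide-treated EV stood apart from the other groups. On the RPM scale untreated EV moved below etoposide-treated R273H for miR-146b-5p, with means of 22.8 ± 15.2 and 29.0 ± 7.58.

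H1299 is an epithelial tumour line, whereas miR-155 and miR-146a are most abundant in blood cells, so miRNAs that mark leukocytes and red cells were read as well. Of 6 such miRNAs, miR-142-5p, miR-144-3p and miR-150-5p had no row. miR-142-3p, a defining leukocyte miRNA, had 2, 1, 1 and 0 reads in the EV libraries and 0 in all 4 R273H libraries. The summed reads of the 6 were 4 to 15 per EV library and 1 to 16 per R273H library, mostly of the red cell miRNA miR-451a. miR-223-3p, a myeloid miRNA, had 3, 0, 2 and 1 reads in the EV libraries and 3, 2, 1 and 0 in the R273H libraries. The reads of miR-451a were 8, 3, 12 and 6 over the EV libraries but 5, 14, 3 and 1 over those of R273H, and among the etoposide libraries it was called lower in R273H (log2 difference -2.22, adjusted p = 0.016 by limma). The part of blood cell RNA in the differences between the lines was not tested.

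Among 11 other miRNAs whose genes have been described as NF-κB targets, 10 were tested and 4 were called between the lines over both treatments, 1 higher and 3 lower in R273H. Beside the 37.1% called over all 321 tested miRNAs, that share is near the background. miR-132-3p, which is induced by CREB and by inflammatory signals, was the member called higher, with 0.91 on the log2 scale (SE 0.32, adjusted p = 0.0268 by limma). It had 9 to 26 reads per library in EV and 32 to 44 in R273H, and its call was lost with total miRNA scaling, edgeR and DESeq2. It was also lost without the first untreated EV library (adjusted p = 0.0761 by limma), the second etoposide-treated EV library (0.0994), the first untreated R273H library (0.061), or the first (0.0515) or second (0.113) etoposide-treated R273H library. The 3 called lower were miR-9-5p, which represses NFKB1 in monocytes, miR-125b-5p, which represses TNF and wild-type p53 transcripts, and miR-30b-5p. miR-9-5p differed by -1.44 (SE 0.24, adjusted p = 4.17e-05 by limma), with 121 to 314 reads in EV and 51 to 185 in R273H. miR-125b-5p differed by -1.13 (SE 0.25, adjusted p = 0.000842 by limma) and miR-30b-5p by -0.93 (SE 0.26, adjusted p = 0.00636 by limma). Both of these lost the call with equal upper quartiles, miR-30b-5p also lost it without the second untreated EV library (adjusted p = 0.0746 by limma), and the direction of all 4 held under every scaling and tool tried. The median of the 10 tested was -0.07, beside 0.20 over all 321 tested miRNAs.

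Members of this list without a call included miR-21-5p, the most abundant miRNA of these cells, at -0.11 (adjusted p = 0.889 by limma). miR-221-3p, which represses the cell cycle inhibitor p27, was at -0.03 (adjusted p = 0.942 by limma), and its cluster neighbour miR-222-3p was at -0.68 (adjusted p = 0.0606 by limma) and was called lower by edgeR and DESeq2. In untreated cells alone, miR-132-3p was called higher and miR-9-5p and miR-125b-5p lower, beside 20.4% called over all tested miRNAs. With either of the untreated R273H libraries left out, no miRNA at all was called by limma in that comparison, and miR-132-3p also lost its call under each other scaling and tool. Among the etoposide libraries miR-9-5p, miR-125b-5p and miR-30b-5p were called lower and none of the 10 higher by limma, beside 18.1% called over all tested miRNAs. These 3 calls were lost with equal upper quartiles, and that of miR-9-5p also with total miRNA scaling. With etoposide, limma and edgeR called none of the 10 in either line. miR-30b-5p had the only unadjusted p under 0.05 by limma in each (0.0365 in EV and 0.00278 in R273H, from the fit of all miRNAs), with log2 differences of -0.89 and -1.31, and it was the miRNA that DESeq2 called in R273H.

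Of 6 miRNAs described as acting on NF-κB pathway proteins, 4 were tested, and miR-223-3p and miR-199a-5p were too low. miR-15a-5p and miR-16-5p, which share a host transcript (miR-16-5p also comes from another locus) and repress BCL2 and the kinase IKKα, were called higher in R273H over both treatments, beside 37.1% called over all tested miRNAs. miR-15a-5p differed by 1.17 (SE 0.22, adjusted p = 0.000183 by limma), with 124 to 272 reads in EV and 430 to 824 in R273H. miR-16-5p differed by 1.03 (SE 0.26, adjusted p = 0.00299 by limma). Both calls over both treatments held with each scaling and tool and with each of the 8 libraries left out. Among the etoposide libraries alone miR-15a-5p was called (1.14, adjusted p = 0.0131 by limma), beside 18.1% called over all tested miRNAs. That call was lost with total miRNA scaling. miR-16-5p was not called there (0.75, adjusted p = 0.161 by limma). miR-181b-5p, which represses importin α3 and so nuclear entry of NF-κB, was at 0.54 (adjusted p = 0.0829 by limma), and miR-301a-3p, which represses the NF-κB repressing factor, was at -0.23 (adjusted p = 0.503 by limma). The median of the 4 was 0.78, beside the same 0.20 over all tested miRNAs.

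**Figure D3:**
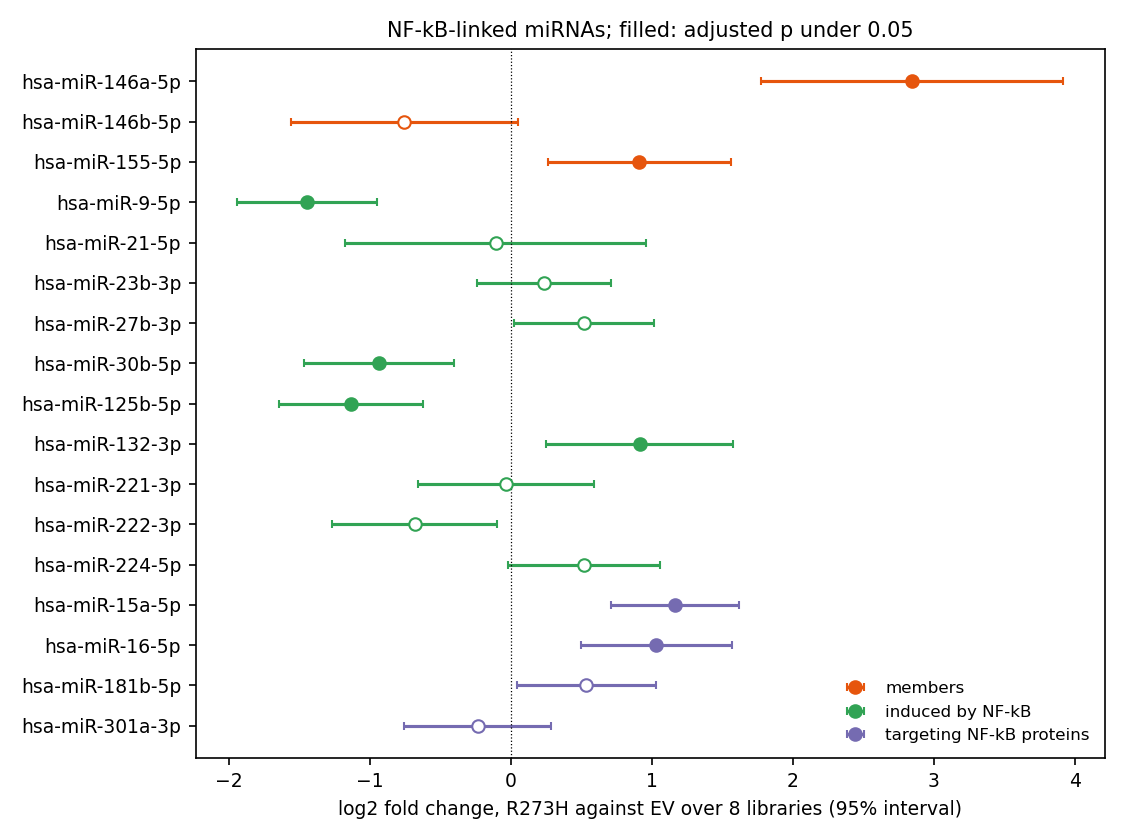
Log2 fold change between R273H and EV over 8 libraries, with 95% intervals from limma, for the 3 members (orange), 10 other miRNAs described as induced by NF-κB (green) and 4 that act on NF-κB pathway proteins (purple); filled points have an adjusted p under 0.05. The 10 green points lie on both sides of 0, between -1.44 for miR-9-5p and 0.91 for miR-132-3p. The orange point of miR-146a-5p reached the minimum mean for testing only through R273H, since EV had no reads.

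miR-155 is also among the miRNAs that earlier work ties to mutant p53, and 5 others of that kind were examined. Of these 5, 4 were tested and 1 was called over both treatments, beside 37.1% called over all 321 tested miRNAs. That 1 was miR-128-3p, from an intron of R3HDM1 or ARPP21, which was higher in R273H. Its log2 difference was 0.93 (SE 0.24, adjusted p = 0.00412 by limma), which is close in size to that of miR-155-5p. It had 208 to 528 reads per library in EV and 631 to 1248 in R273H. Of the others, miR-130b-3p was at 0.49 (adjusted p = 0.126 by limma), miR-27a-3p at -0.31 (adjusted p = 0.422 by limma) and let-7i-5p at -0.63 (adjusted p = 0.0875 by limma). miR-223-3p, with 0 to 3 reads per library, was not tested.

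The miRNAs whose levels were most like those of each member over the 8 libraries were named by Pearson's r of log2(scaled reads + 1). The 8 values fall into the 2 lines and share library depth and size factors, so r describes the pattern of the lines and carries no p. For miR-146a-5p they were miR-15a-5p (r = 0.967), miR-10a-3p (0.966) and miR-450a-5p (0.954). For miR-155-5p they were miR-887-3p (0.962), miR-450a-5p (0.938) and miR-16-5p (0.935). miR-887-3p resembled miR-146a-5p in its reads too, with 0, 0, 0 and 1 in the EV libraries and 7, 10, 16 and 9 in the R273H libraries. For miR-146b-5p the values were lower, with miR-423-3p (0.847), miR-98-5p (0.833) and miR-339-5p (0.812), none of which was called between the lines over both treatments.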

How the data were processed

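Small RNA of 8 libraries was sequenced on an Ion PGM instrument. Per the labels and methods, the authors trimmed reads with the FASTX-toolkit, kept 17 to 35 bases, aligned them with SHRiMP to miRBase and the remainder with Novoalign to hg19, and normalized counts with DESeq (versions not given in the sources used here). The deposited signal is a count divided by a size factor, in 3 tables normalized separately, and whole reads were recovered for 100% of values. The authors' comparison tables (mean, fold change, p-value and adjusted p-value) were not used.

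Here limma 3.58.1 (R 4.3.3, intensity trend) tested log2(normalized count + 1) of miRNAs with a mean of at least 3, with Benjamini-Hochberg adjustment over all tested miRNAs and a call at an adjusted p under 0.05. Comparisons within a table used its counts. Those across tables used the reads of all 8 libraries with size factors from 391 features. Exact permutation tests were two-sided over 70 regroupings. edgeR 4.0.16 and DESeq2 1.42.0 on recovered reads, other pseudocounts, filters and scalings, a replicate block and each library left out were alternatives. Fold changes of low miRNAs are understated. Scripts were tested on simulated data. Positions came from GRCh37 with GENCODE 44, and sequences from RefSeq (GRCh38.p14), which held all 6 arms. Named are the 3 members, their other arms, list members that were called with at most 4 more, and the 3 most alike miRNAs per member. Members and lists were chosen with earlier results of these data known.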

Additional observations from a re-analysis of the deposited data

How the results depend on the processing

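Of 264 values of the 3 members under other settings, 238 kept their direction and, where tested, their side of the threshold. A further 9 lost a call, 2 gained one and 15 changed sign. The 238 include values of untreated miR-146a-5p that had no test and were judged by direction only. They also include values whose direction could not change. Leaving out an EV library left the differences of miR-146a-5p as they were, since EV was at 0. Leaving out an untreated library likewise left the line differences under etoposide as they were. The 264 also hold the difference of responses of miR-146a-5p, although it had no EV response to compare. Settings in which a tested member fell under the filter are left out of the 264. Values are log2 differences, and the cause of a change was not tested. The line difference of miR-146a-5p over both treatments, set against 0 reads in EV, ran from 1.17 with a pseudocount of 5 to 5.66 with edgeR, so its size depends on the setting. With the 2 added, the line difference was 0.11 over both treatments (where miR-146b-5p alone was negative), -0.014 under etoposide and 0.19 untreated, and the difference of responses was -0.25. Without a filter, untreated miR-146a-5p (2.40) was called. edgeR gave miR-146b-5p -1.20 over both treatments, a call, and 0.019 for the difference of responses. miR-155-5p over both treatments lost its call without a filter (0.91), with total miRNA scaling (0.92), edgeR (0.75) and DESeq2 (0.83). Its difference of responses turned positive with equal upper quartiles (0.21), total miRNA scaling (0.24) and edgeR (0.020).

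With each library left out, the lone library is assumed to vary like the other groups. The line difference of miR-155-5p over both treatments then ran from 0.79 to 1.04. Its etoposide difference ran from -0.0087 to 0.28 in EV and from -0.17 to 0.36 in R273H, and its difference of responses from -0.29 to 0.21. That of miR-146b-5p ran from -0.94 to 0.24, and untreated miR-146a-3p from -1.60 to 0.042. Leaving out an R273H library took miR-146a-5p under the filter, so no test was made, and its line difference over both treatments ran from 2.82 to 2.87. A mean of at least 10 left no test of miR-146a-5p.

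The number of miRNAs called between untreated lines (62) became 24 with equal upper quartiles, 39 with total miRNA scaling or limma without the trend and 34 with DESeq2, and ran from 0 (without either R273H library) to 51 with a library left out. Among the etoposide libraries, 58 became 12 without a filter and 25 with total miRNA scaling, and ran from 20 to 65. Over both treatments, 119 became 74 without a filter and 76 with total miRNA scaling. With etoposide in EV, 2 became 0 with equal upper quartiles and total miRNA scaling and 1 with limma without the trend, edgeR or DESeq2, and ran from 0 to 1. In R273H, 0 became 2 with a mean of at least 10, equal upper quartiles or total miRNA scaling and 1 with DESeq2, and ran from 0 to 9. For the difference of responses, 0 became 1 with total miRNA scaling and ran from 0 to 1.

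With the replicate number as a block, the untreated count became 0 and no member's call changed. Deviations of same-numbered libraries correlated at -0.309 to 0.147 over pairs of groups, so the number was not taken to pair them. The main scaling of the line differences was the deposited one for the untreated lines only. Against the main scaling, equal upper quartiles moved the median line difference of all miRNAs by 0.24 to 0.44. edgeR moved it by -0.25 to -0.19 and DESeq2 by -0.20 to -0.11. With 3 to 51 reads per library where present, depth limits each value.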
